A study of Mus musculus with 6 samples.

Results

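The 9 genes described here encode the matrix of the basement membrane: 3 laminin chains (Lama1, Lamb1, Lamc1), the collagen IV chains Col4a1 and Col4a2, the nidogens Nid1 and Nid2, perlecan (Hspg2) and Sparc. They were chosen by name, and each matched 1 of the 21639 entries of the deposited RNA-Seq expression table. The basement membrane is the thin sheet of matrix on which epithelial cells sit. Laminin trimers assemble into a network at the cell surface, collagen IV forms a covalently crosslinked network beside it, and nidogens and perlecan link the networks. In the early mouse embryo the primitive endoderm and the parietal endoderm that derives from it are known as strong producers of this matrix, and embryonic stem cells (ESCs) that aggregate into embryoid bodies (EBs) form an outer endoderm layer on such a sheet.

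RNA was measured in 3 mouse ESC lines, H2AZ WT, H2AZ KD and H2AZ-AP3 variant, each as ESCs (D0) and as EBs after 3 days without LIF (D3). Each of these 6 conditions has 1 library. The design asks how loss of the histone variant H2A.Z, or replacement of 3 residues of its acidic patch by those of H2A, changes gene expression in ESCs and during differentiation. The WT and AP3 lines carry a YFP-tagged H2A.Z transgene, wild type or mutant, in lentiviral vectors with a doxycycline-inducible CMV promoter (induced with 1 µg/ml and sorted for YFP), and a hairpin against the 3′ UTR of the endogenous gene. H2AZ KD names cells in which the hairpin depletes the endogenous gene. The strain is labelled V6.5 (129SvJaexC57BL/6), whereas the protocols name KH2 ESCs for the transgenic lines. ESCs were grown on irradiated mouse embryonic fibroblasts, which were left out for the last passage, and EBs were made on non-adherent plates.

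H2afz, the gene of H2A.Z, stood in the order WT, KD, AP3 at 279, 343 and 304 RPKM (reads per kilobase of transcript, scaled to the mapped reads of the library) at D0 and 258, 236 and 394 RPKM at D3. The library labelled H2AZ KD was thus not below WT at D0, and reads of a transgene, where a line carries it, fall on the same exons. Whether the KD cells carry it is not stated for these libraries. Each direction below that involves this line is that of the library labelled H2AZ KD. Libraries had 16822 to 17170 entries above 0, and their depth, estimated from the lowest values, was 17200000 to 31100000 reads. The upper end is AP3 D0, which came to 14300000 reads when only transcripts over 3000 bases were used. With 1 library per condition no difference could be checked against replicates, and no p-value was computed. A gene was called changed when its RPKM differed by more than 1.5-fold (0.58 on the log2 scale) between 2 libraries, and each such difference compares those libraries, not the conditions. Beside the first counts of the 9 genes called stand the shares of all entries called, and among entries with at least 1 RPKM in either library these shares were 3.37% to 13.1%.

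The summed RNA of the 9 genes, of which Sparc was the largest term, was lower in the WT and KD ESC libraries than in AP3 ESCs and in each EB library. Lama1, Lamb1, Lamc1, Col4a1, Col4a2 and Sparc each followed this order, whereas Nid1, Nid2 and Hspg2 did not. The 9 genes summed to 350.5 RPKM in WT D0, 378 RPKM in KD D0 and 700.0 RPKM in AP3 D0. In EBs the sum was 830.2 RPKM in WT, 1205 RPKM in KD and 719.7 RPKM in AP3. The AP3 library thus had nearly the same sum at D0 and D3, and the KD D3 library had the highest sum. As a share of all RPKM these sums ranged from 0.0906% in WT D0 to 0.296% in KD D3. In bulk RNA, more cells of a producing type and more RNA per cell cannot be told apart.

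**Figure D1:**
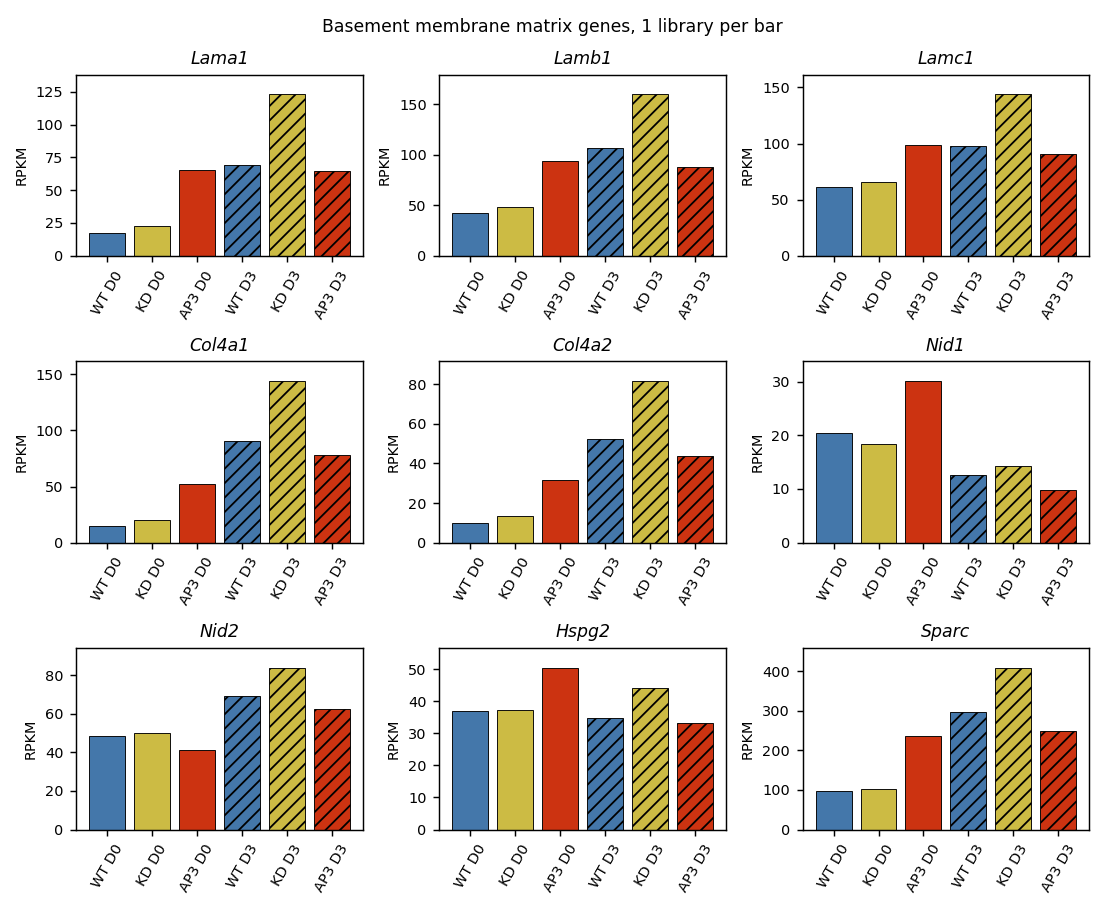
RPKM of each of the 9 basement membrane matrix genes in the 6 libraries, 1 library per bar, plain bars for ESCs (D0) and hatched bars for EBs (D3). Lama1, Lamb1, Lamc1, Col4a1, Col4a2 and Sparc are low in WT D0 and KD D0 and highest in KD D3, whereas Nid1 and Hspg2 are highest in AP3 D0.

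The collagen IV genes had the widest range across libraries, 9.63-fold for Col4a1 and 8.15-fold for Col4a2. They encode the chains that combine, in most tissues, into the common collagen IV trimer. They lie head to head on chromosome 8 (mm9), Col4a1 on the minus strand (chr8:11198423-11312826, 52 exons) and Col4a2 on the plus strand (chr8:11312829-11449286, 48 exons), with 2 bases between the deposited start sites. In RefSeq (GRCm38.p6) the first exons overlap by 22 bases. This stretch is shown on both strands because both transcription starts lie in it, with capitals for the 22 bases from one start site to the other, at chr8:11312801-11312830 of GRCm38.p6.
Col4a2 strand: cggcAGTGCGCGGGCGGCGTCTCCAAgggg
Col4a1 strand: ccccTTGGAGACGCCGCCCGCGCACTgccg
Windows from 250 bases before to 50 bases after the start site were available for 6 of the 9 genes (Lamb1, Col4a1, Col4a2, Nid1, Hspg2 and Sparc). The GC box GGGCGG occurred on either strand in 5 of these 6 windows, and in 35.7% of 32851 mouse promoter windows of the same length. The pair shares a single GC box, which lies within the capitals above. The CCAAT box (letters CCAAT, either strand) occurred in 4 of the 6, against 37.4% of all windows, and lay nearest to the start site in Col4a2, with its first base at position -32. The windows below show it in capitals, as CCAAT or as its reverse complement ATTGG, in the direction of each gene, for the genes that held it (GRCm38.p6).
Col4a1, chr8:11312955-11312984, minus strand: gtgcttgcccgggATTGGcgagccaagggg
Col4a2, chr8:11312760-11312789, plus strand: cccgaggagctccCCAATttgttggcgctg
Lamb1, chr12:31265093-31265122, plus strand: gggaactcaagtaCCAATgccctacagctt
Nid1, chr13:13437498-13437527, plus strand: cctgctcgctgccATTGGtagacgggacag
The TATA box TATAAA was found on neither strand of the 6 windows and in 13.6% of all windows. The GATA motif, with the letters AGATAA, was likewise in 0 of the 6 and in 11.2% of all. The same held for the AP-1 motif TGANTCA, which 7.81% of all windows held. These matches describe letters in a window and are no evidence of binding.

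Col4a1 was measured at 14.98 RPKM in WT D0, 20.3 in KD D0 and 52.4 in AP3 D0, and at 90.9 in WT D3, 144 in KD D3 and 78.4 in AP3 D3. Col4a2 was at 10.0, 13.6 and 31.4 RPKM in the same order at D0 and 52.3, 81.6 and 43.5 RPKM at D3. Both were lowest in WT D0 and highest in KD D3, and in AP3 ESCs they lay between the other ESC libraries and the EB libraries. The ratio of Col4a1 to Col4a2 was 1.496 in WT D0, 1.492 in KD D0 and 1.67 in AP3 D0, and 1.74, 1.77 and 1.80 in the EB libraries of WT, KD and AP3. The pair thus kept a ratio within 1.21-fold while its levels moved several-fold. Exons of Col4a2 also overlap Gm15419 on the opposite strand, and whether reads were counted by strand is not stated.

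The laminin genes encode the α1, β1 and γ1 chains that form the main laminin trimer of the early embryo. Lama1 (chr17:68046605-68171985 in mm9, plus strand, 63 exons) stood at 17.3 RPKM in WT D0, 22.8 in KD D0 and 65.2 in AP3 D0, and at 69.0, 123 and 64.7 RPKM in WT, KD and AP3 at D3. Lamb1 (chr12:31950159-32014504, plus strand, 33 exons) stood at 42.6, 48.3 and 94.3 RPKM at D0 and 107, 160.3 and 87.9 RPKM at D3. Lamc1 (chr1:155066052-155179916, minus strand, 28 exons) stood at 61.4, 65.8 and 98.3 RPKM at D0 and 97.9, 144 and 90.9 RPKM at D3. In all 3 genes WT D0 was the lowest library, KD D0 the next and KD D3 the highest, and AP3 had similar levels at D0 and D3. The α1 chain gene varied most, 7.13-fold across libraries, against 3.77-fold for Lamb1 and 2.35-fold for Lamc1.

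Because of this, the balance of the 3 laminin genes differed between libraries. Lama1 was at 0.282 of Lamc1 in WT D0 and at 0.346 in KD D0, but at 0.663 in AP3 D0. In EBs the ratio was 0.705 in WT, 0.856 in KD and 0.712 in AP3. Lamb1 moved the same way relative to Lamc1, from 0.694 in WT D0 and 0.733 in KD D0 to 0.959 in AP3 D0 and 0.967 to 1.11 in EBs. Lama1 remained the lowest of the 3 in each library.

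**Figure D2:**
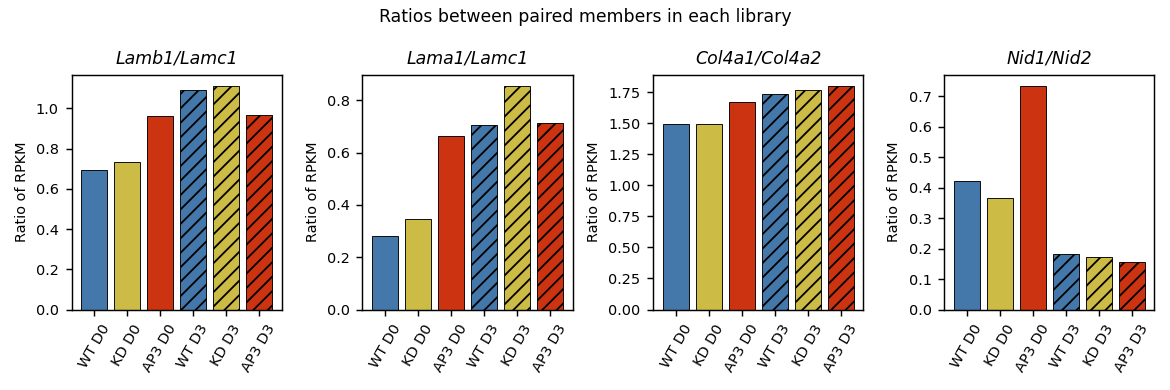
Ratios of RPKM between paired genes in the 6 libraries, 1 library per bar, plain for D0 and hatched for D3. Col4a1/Col4a2 stays between 1.49 and 1.80, whereas Lama1/Lamc1 runs from 0.282 in WT D0 to 0.856 in KD D3 and Nid1/Nid2 from 0.156 in AP3 D3 to 0.734 in AP3 D0.

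Sparc, a collagen-binding matricellular glycoprotein, was the most abundant of the 9 genes in every library. It lies at chr11:55208003-55233582 (mm9, minus strand, 10 exons). Sparc was at 98.35 RPKM in WT D0, 102 in KD D0 and 237 in AP3 D0, and at 296, 408 and 249 RPKM in WT, KD and AP3 at D3. It was low in WT D0 and KD D0, and AP3 D0 lay just below AP3 D3.

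The nidogens and perlecan, the linkers of the sheet, did not share this pattern. Nid1 (chr13:13529869-13604542 in mm9, plus strand, 20 exons) was at 20.4 RPKM in WT D0, 18.4 in KD D0 and 30.2 in AP3 D0, and at 12.7, 14.3 and 9.74 RPKM at D3. Its D0 libraries were all above its D3 libraries, the opposite of Col4a1, Col4a2 and Sparc. Nid2 was at 48.4, 50.2 and 41.1 RPKM at D0 and 69.4, 83.8 and 62.5 RPKM at D3. Here the D3 libraries were all above the D0 libraries, and AP3 was the lowest library at each day. The ratio of Nid1 to Nid2 therefore fell from 0.422 to 0.182 in WT, from 0.365 to 0.171 in KD and from 0.734 to 0.156 in AP3. Nid2 carries a limit, since its deposited locus (chr14:20570479-20643045) is shared with a second entry, 2700060E02Rik, which lies on the opposite strand and was at 62.8 to 102 RPKM, so reads of the 2 genes may not be separated. Perlecan, Hspg2 (chr4:137024718-137126545, plus strand, 97 exons), varied least. It was at 37.0, 37.2 and 50.5 RPKM at D0 and 34.8, 44.2 and 33.2 RPKM at D3, a range of 1.52-fold.

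From D0 to D3 in the WT line, 6 of the 9 genes were called higher and 1 lower, where 14.1% of all entries were called higher and 16.5% lower. The median log2 change of the 9 genes was 1.33, against 0.04 over entries with at least 1 RPKM in either library. Col4a1 rose 6.07-fold and Col4a2 5.23-fold, followed by Lama1 (3.99-fold), Sparc (3.01-fold), Lamb1 (2.51-fold) and Lamc1 (1.59-fold). Nid1 fell by 0.69 on the log2 scale. Nid2 was 1.43-fold higher and Hspg2 at 0.940 of its D0 level, neither past 1.5-fold.

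In the library labelled H2AZ KD the log2 change from D0 to D3 was above that in WT for each of the 9 genes, with 7 called higher and 0 lower (14.0% and 16.2% of all entries). Col4a1 rose 7.09-fold, Col4a2 5.99-fold, Lama1 5.41-fold, Sparc 4.02-fold and Lamb1 3.32-fold. Lamc1 rose 2.19-fold and Nid2 1.67-fold. The log2 change exceeded that of the WT line by 0.20 for Col4a2 to 0.46 for Lamc1, differences for which the design allows no test. Nid1 was at 0.782 of its D0 level and did not pass the threshold.

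In the AP3 line the laminin, collagen IV and Sparc genes did not pass 1.5-fold between D0 and D3. Of the 9 genes, 1 was called higher (Nid2, 1.52-fold) and 2 lower (Nid1 and Hspg2, which fell by 1.63 and 0.60 on the log2 scale), with 14.7% of all entries called higher and 16.3% lower. When ratios were centred on the median, the count of genes called higher was 0 and the count called lower was 2. The median log2 change of the 9 genes was -0.01. Lama1 was at 0.993, Lamb1 at 0.932, Lamc1 at 0.925 and Sparc at 1.05 of their D0 levels. Col4a1 was 1.49-fold and Col4a2 1.39-fold higher, with Col4a1 just short of the threshold. The difference between the AP3 and WT changes was -2.02 on the log2 scale for Col4a1, -2.01 for Lama1, -1.91 for Col4a2, -1.52 for Sparc and -1.43 for Lamb1.

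**Figure D3:**
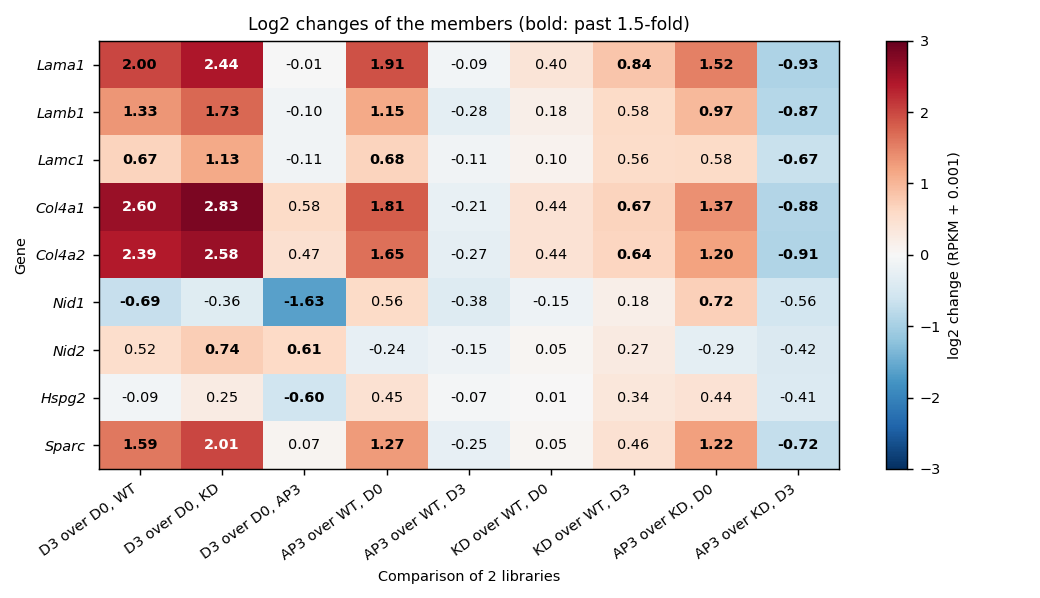
Log2 change of RPKM + 0.001 for each of the 9 genes in 9 comparisons of 2 libraries, with bold figures past 1.5-fold. The D3 over D0 columns of WT and KD are positive for 7 and 8 of the genes, the AP3 column is near 0 for Lama1, Lamb1, Lamc1 and Sparc, and the AP3 over WT columns change from mostly positive at D0 to negative at D3.

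AP3 ESCs had more laminin, collagen IV and Sparc RNA than WT ESCs. At D0, 6 of the 9 genes were higher in AP3 than in WT and 0 were lower, with 11.1% of all entries called higher and 13.9% lower. Among entries with at least 1 RPKM the share called higher was 7.79%. Lama1 was 3.77-fold, Col4a1 3.50-fold, Col4a2 3.13-fold, Sparc 2.41-fold, Lamb1 2.22-fold and Lamc1 1.602-fold higher. Nid1 (1.48-fold) and Hspg2 (1.36-fold) were above WT without passing the threshold, and Nid2 was at 0.848 of WT. The WT D0 library is the base of this comparison and of the change from D0 to D3 in WT.

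At D3 the same comparison, AP3 over WT, gave 0 calls among the 9 genes in either direction, where 10.4% of all entries were called higher and 11.7% lower. All 9 were slightly below WT, between 0.770 of WT for Nid1 and 0.953 for Hspg2. The log2 changes ran from -0.38 to -0.07, with a median of -0.21. The D0 and D3 comparisons of AP3 with WT use different libraries, whereas the changes from D0 to D3 share libraries with both.

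The KD and WT ESC libraries had similar levels of the 9 genes, with 0 called in either direction (8.96% of all entries were called higher and 10.7% lower). The largest differences were in Col4a2 and Col4a1 (both 1.36-fold) and Lama1 (1.32-fold). At D3 all 9 genes were above WT in the library labelled H2AZ KD and 3 were called: Lama1 at 1.79-fold, Col4a1 at 1.59-fold and Col4a2 at 1.56-fold, against 9.41% of all entries called higher and 11.3% lower. Lamb1 (0.58 on the log2 scale) and Lamc1 (0.56) lay just under the threshold, and they passed it when ratios were centred on the median or upper quartiles were equalised, which gave 5 calls.

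Against the library labelled H2AZ KD, AP3 was higher at D0 and lower at D3. At D0, 6 genes were called higher and 0 lower (13.5% of all entries in each direction): Lama1 (2.86-fold), Col4a1 (2.58-fold), Sparc (2.33-fold), Col4a2 (2.30-fold), Lamb1 (1.95-fold) and Nid1 (1.64-fold). Lamc1 was 1.49-fold higher, not past the threshold. At D3, 0 were called higher and 6 lower (11.6% and 11.1% of all entries), between 0.525 of KD for Lama1 and 0.631 for Lamc1, with Col4a1, Col4a2, Lamb1 and Sparc within that range. These comparisons share the AP3 libraries with those against WT, so that the calls of the pair are not independent.

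The other genes of the matrix were taken from lists by function. Of the 8 other laminin chains, Lama5, which encodes an α chain widespread in later tissues, was the most abundant at 28.8, 24.4 and 33.6 RPKM at D0 and 23.4, 21.7 and 19.5 RPKM at D3. Lamb2 was at 5.81 to 12.5 RPKM, highest in AP3 D0. The list summed to 33.2 RPKM in WT D3 against 41.8 in WT D0, and from D0 to D3 in WT 1 of the 8 was called higher and 3 lower, against 14.1% and 16.5% of all entries. In AP3 0 were called higher and 7 lower (14.7% and 16.3% of all entries). Several of these chains were below 1 RPKM. With the filter at 1 RPKM, 1 of 3 chains was called in WT and 4 of 4 in AP3, each of them lower. The 4 other collagen IV chains summed to under 1 RPKM in each library, with Col4a3 listed at 0 in the D0 libraries. Among the α chain genes Lama5 was above Lama1 in WT D0 and KD D0, and Lama1 was above Lama5 in the other 4 libraries.

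Among 16 other basement membrane components, 5 were called higher and 3 lower from D0 to D3 in WT (14.1% and 16.5% of all entries), and 5 higher and 1 lower in AP3 against WT at D0 (11.1% and 13.9%). These counts rest on low values. The 8 calls in WT became 3 with a pseudocount of 1 or with the filter at 1 RPKM, and the 6 in AP3 against WT became 3 with a pseudocount of 0.1, 1 with a pseudocount of 1 and 2 with the filter. In AP3 from D0 to D3, 4 were called higher and 6 lower (14.7% and 16.3%), and these 10 calls became 4 with a pseudocount of 1 and 5 with the filter. Fn1 (fibronectin) was at 123, 102 and 145 RPKM at D0 and 93.1, 71.5 and 77.8 RPKM at D3, and from D0 to D3 it was called lower in AP3 (-0.89 on the log2 scale) and not called in WT or KD. Fbln1 was at 8.78 RPKM in WT D0 and 19.1 in WT D3, and at 9.56 in both AP3 libraries. Fbln2 fell from D0 to D3 by 2.23 on the log2 scale in WT, 2.68 in KD and 3.43 in AP3.

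Enzymes that fold and crosslink collagen did not all move the same way. Of 13 found, 6 were called higher and 4 lower from D0 to D3 in WT, where 14.1% of all entries were called higher and 16.5% lower, and 6 and 4 in KD (14.0% and 16.2%). In AP3, 3 were called higher and 5 lower (14.7% and 16.3%), and AP3 ESCs had 6 higher and 0 lower against WT ESCs (11.1% and 13.9%). Serpinh1, the collagen chaperone, was at 37.0, 49.8 and 100.5 RPKM at D0 and 92.2, 139 and 93.0 RPKM at D3. Like the laminin genes it was lowest in WT D0 and highest in KD D3. The prolyl hydroxylase subunit P4ha1 was at 13.4, 14.0 and 18.7 RPKM at D0 and 31.6, 57.1 and 28.4 RPKM at D3, so that its AP3 ESC library stayed near the other ESCs. Loxl2, a lysyl oxidase, was likewise low in all 3 ESC libraries (3.38 to 4.22 RPKM) and at 10.3, 17.0 and 8.54 RPKM in EBs. Lox and Loxl1 moved the other way. Lox was at 1.89, 1.69 and 6.58 RPKM at D0 and 0.378, 0.284 and 0.357 RPKM at D3, and Loxl1 was highest in AP3 D0 (8.64 RPKM) and at 1.32 to 2.22 RPKM in EBs.

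**Figure D4:**
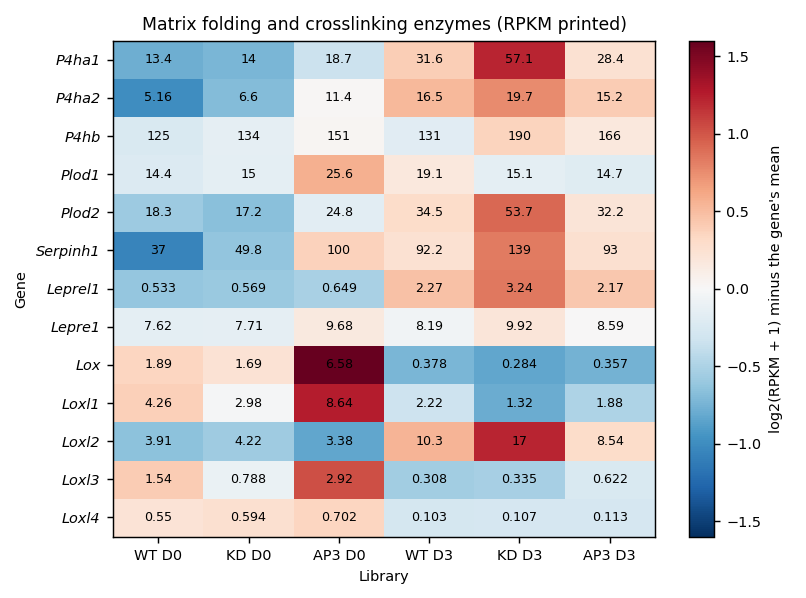
Matrix folding and crosslinking enzymes (rows) in the 6 libraries (columns), with RPKM printed and colour for log2(RPKM + 1) minus the gene's mean. Serpinh1 is at 37.0 RPKM in WT D0 and 100.5 in AP3 D0, P4ha1 and Loxl2 are highest in KD D3, and Lox and Loxl1 are highest in AP3 D0.

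The matrix receptors were lower or not called in EBs. Of 14 receptors, 0 were called higher from D0 to D3 in any line, and 7 were called lower in WT, 6 in KD and 8 in AP3. Of all entries, 14.1%, 14.0% and 14.7% were called higher in the 3 lines and 16.5%, 16.2% and 16.3% lower. Bcam, a receptor for laminin α5, was at 35.1, 38.8 and 56.1 RPKM at D0 and 16.5, 15.2 and 23.1 RPKM at D3. Itga7, a laminin-binding integrin chain, was highest in AP3 D0 at 6.03 RPKM and at 0.203 to 1.93 RPKM elsewhere. Of the 12 proteases and inhibitors, 5 were called higher and 1 lower in AP3 against WT at D0 (11.1% and 13.9% of all entries), 3 in all with a pseudocount of 1. Timp1, an inhibitor of metalloproteinases, was at 21.5 RPKM in WT D0 and 37.6 in AP3 D0, and the protease Htra1 was higher in AP3 by 0.77 on the log2 scale. Timp2 was at 18.2 RPKM in WT D0 and 15.1 in AP3 D0 without a call, and the gene called lower was Timp3 (-0.64 on the log2 scale).

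Markers of cell types known to make this matrix differed between the same libraries. All 8 primitive endoderm genes were called higher in AP3 than in WT at D0, against 11.1% of all entries. With a pseudocount of 1 the count was 7, and with the filter at 1 RPKM it was 7 of 7. Their sum was 22.2, 27.4 and 60.6 RPKM in WT, KD and AP3 at D0 and 85.2, 203 and 115 RPKM at D3. Dab2 was the largest term of each D3 sum. Gata4 was at 3.24, 4.94 and 12.1 RPKM at D0 and 13.7, 23.2 and 13.3 RPKM at D3. Gata6, which with Gata4 encodes a transcription factor of this lineage, was at 2.96, 4.38 and 9.84 RPKM at D0 and 11.1, 17.4 and 12.3 RPKM at D3. Like Col4a1, both were lowest in WT D0 and highest in KD D3. From D0 to D3, 7 of the 8 were called higher in WT, 8 in KD and 4 in AP3, against 14.1%, 14.0% and 14.7% of all entries. In AP3 Gata4 was above its D0 level by 0.15 and Gata6 by 0.32 on the log2 scale, neither past the threshold. Dab2, an endocytic adaptor, and the transcription factor gene Sox7 rose there, Dab2 from 22.4 to 70.3 RPKM (1.65 on the log2 scale) and Sox7 from 1.68 to 4.56 RPKM (1.44). Both were also called higher in AP3 than in WT at D3 (0.75 and 0.69 on the log2 scale), where the 9 matrix genes lay below WT, but with a pseudocount of 1 only 1 gene of the list was called and Sox7 was not.

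Of 8 visceral endoderm genes, 8 were called higher from D0 to D3 in WT, 8 in KD and 7 in AP3, against 14.1%, 14.0% and 14.7% of all entries. With the filter at 1 RPKM in either library, 6 of 6 were called higher in WT, 8 of 8 in KD and 4 of 5 in AP3. Rbp4 went from 1.42 to 1.57 RPKM in AP3 without a call. The 8 genes summed to 11.0, 13.0 and 25.5 RPKM at D0 and 68.7, 209 and 78.3 RPKM at D3, highest in KD D3. Most of the D3 sums was Cubn, Lrp2 and Amn. All 8 were called higher in KD than in WT at D3, against 9.41% of all entries. In AP3 against WT at D3, 0 were called higher and 3 lower (10.4% and 11.7% of all entries). These were Ttr (-0.71 on the log2 scale), Afp (-1.71) and Rbp4 (-1.01), and 2 remained with the filter at 1 RPKM. In AP3 against WT at D0, Amn (1.83 on the log2 scale) and Cubn (2.19) were called higher and 1 gene was called lower (11.1% and 13.9% of all entries). Ttr and Afp, defining secreted products, were listed at 0 in WT D0 and AP3 D0. Parietal endoderm genes summed to 78.3, 43.6 and 49.5 RPKM at D0, where AP3 was below WT, and to 113, 135 and 77.9 RPKM at D3. In AP3 against WT at D0, where 11.1% of all entries were called higher and 13.9% lower, 2 of these 8 genes were called higher, among them Thbd (0.99 on the log2 scale), and 3 lower, among them Krt18 (-1.26 on the log2 scale).

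Fibroblast and feeder genes also stood higher in AP3 ESCs. Their sum (9 genes found) was 28.7 RPKM in WT D0, 24.9 in KD D0 and 49.0 in AP3 D0, with 6 called higher and 1 lower in AP3 against WT (11.1% and 13.9% of all entries). At D3 the sum was 13.2, 7.73 and 10.3 RPKM. In AP3 against WT at D3, 5 of the 9 were called higher and 1, Thy1, lower (10.4% and 11.7% of all entries). With the filter at 1 RPKM, 2 were called higher and 1 lower. Col1a1 was at 9.76, 7.42 and 15.5 RPKM at D0 and 0.923 to 2.57 RPKM at D3, and Col1a2 at 12.9, 11.8 and 22.5 RPKM at D0 and 0.591 to 2.36 RPKM at D3. Thy1 was at 1.74, 2.42 and 1.74 RPKM at D0, with AP3 at the level of WT, and at 9.19, 5.48 and 3.56 RPKM in WT, KD and AP3 at D3, the larger part of the D3 sums in WT and KD. Dcn was at 0.321 RPKM in WT D0 and 2.46 in AP3 D0, Col3a1 at 1.28 and 2.47 RPKM, Col5a2 at 0.959 and 1.95 RPKM, and Lum was listed at 0 in WT D0 and at 0.333 RPKM in AP3 D0. The 1 gene called lower in AP3 against WT at D0 was Postn, at most 0.112 RPKM in any library and listed at 0 in AP3 D0 and in the D3 libraries. From D0 to D3 the fibroblast sum fell in each line, whereas the sum of the 9 genes rose in WT and KD. In AP3 the sum of the 9 genes was nearly level (700.0 and 719.7 RPKM). The part of primitive endoderm, fibroblast or feeder RNA in the AP3 ESC levels of the 9 genes was not tested. Endothelial genes summed to 18.04 to 34.2 RPKM over the 6 libraries, and most of this was Egfl7. In AP3 against WT at D3, 4 of the 6 endothelial genes were called higher and 0 lower (10.4% and 11.7% of all entries). With the filter at 1 RPKM, 2 were called higher. From D0 to D3, 1 was called higher and 0 lower in WT, 4 and 2 in KD and 4 and 0 in AP3. Of all entries, 14.1%, 14.0% and 14.7% were called higher and 16.5%, 16.2% and 16.3% lower. Trophoblast genes summed to 4.46 to 7.26 RPKM, and Elf5, a trophoblast marker, was listed at 0 in all 6 libraries. Pluripotency genes (5 found) summed to 1996, 1941 and 1989 RPKM at D0 and to 1737, 1358 and 1669 RPKM at D3, and most of this sum was Dppa5a and Pou5f1. Within the list Sox2 was called lower in AP3 than in WT at D0 (109.7 against 191 RPKM, or -0.80 on the log2 scale), whereas Pou5f1 stood at 421 RPKM in WT D0 and 540.5 in AP3 D0, not past the threshold.

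**Figure D5:**
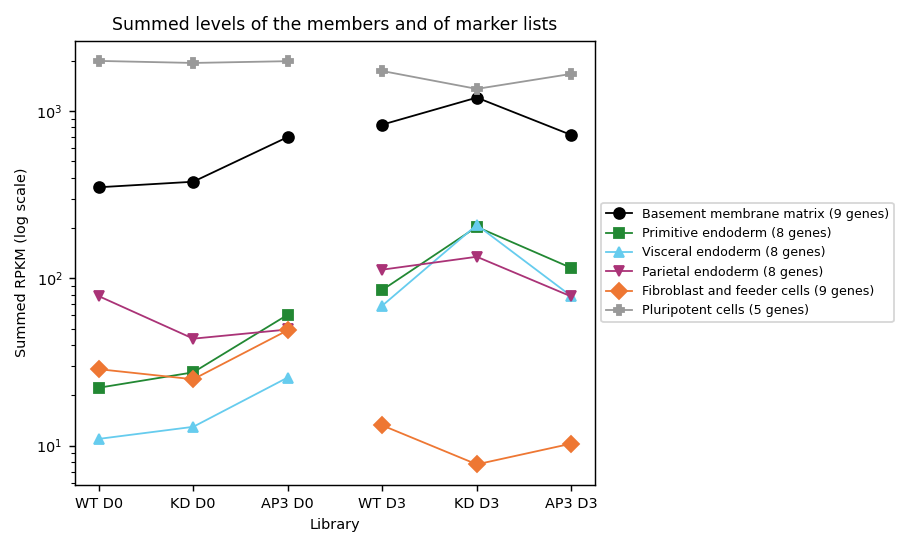
Summed RPKM (log scale) of the 9 basement membrane matrix genes and of 5 marker lists in the 6 libraries, 1 point per library. The matrix and primitive endoderm sums rise from WT D0 to AP3 D0 (350.5 to 700.0 and 22.2 to 60.6 RPKM) and peak in KD D3, the fibroblast sum is highest in AP3 D0 (49.0 RPKM), and the pluripotency sum is lowest in KD D3 (1358 RPKM).

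The genes varied together to different degrees over the 6 libraries. The correlation of each gene's log2 level with the mean of the other 8 was 0.999 for Lamb1, 0.992 for Lama1, 0.988 for Sparc, 0.985 for Lamc1, 0.972 for Col4a2 and 0.965 for Col4a1. It was 0.628 for Nid2, 0.308 for Hspg2 and -0.40 for Nid1. These describe 6 points that share cell lines, days and libraries. Of 994 other genes that averaged 5 RPKM or more and ranged over 2-fold or more, 71 had a correlation over 0.9 with the mean log2 level of the 9. The highest 10 were 5730469M10Rik (0.992), Gata4 (0.990), Ctsc (0.986), Tpcn1 (0.985), Serpinh1 (0.982), Gata6 (0.976), Efna3 (0.975), Hexa (0.975), Npl (0.974) and Nfxl1 (0.973). Among them Ctsc and Hexa encode lysosomal enzymes. Ctsc was at 4.55, 4.22 and 13.1 RPKM at D0 and 14.7, 31.2 and 15.1 RPKM at D3, low in WT and KD ESCs and highest in KD EBs.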

How the data were processed

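Single-end RNA-Seq of poly(A)-selected RNA was measured in 6 mouse ESC and EB libraries, 1 per line and day. The authors deposited RPKM values per gene, in 21639 entries with 21376 distinct symbols (420 entries share a symbol), after alignment to mm9. The submitters' processing notes name Bowtie 0.12.7 and Cufflinks 1.3.0. The 6 columns of log2 ratios that the authors deposited hold their own comparisons and were not used.

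Columns were matched to conditions by name, and deposited starts, which count from 0, were raised by 1. In 9 comparisons of 2 libraries, the log2 of the ratio of RPKM + 0.001 was taken, and a gene was called past 1.5-fold. Depth was estimated from the smallest steps of RPKM at 3696 genes with 1 annotated transcript over 1500 bases. The members' values rest on an estimated 1111 to 28885 reads, and counting error alone gives a log2 change between 2 libraries at the lowest number an SE of 0.0612, which does not cover differences between cultures. These numbers carry the uncertainty of the depth, which in AP3 D0 was 31100000 or 14300000 reads depending on the transcripts used. Exons come from GENCODE (NCBIM37), and promoter sequences from RefSeq (GRCm38.p6).

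The members and the lists were chosen with earlier results of these data known. Named were the 9 members, H2afz and the 10 genes most like the members' mean. From each list came up to 4 genes with the widest range of log2(RPKM + 1) among those reaching 5 RPKM. Chosen outside this rule, after their values were seen, were markers listed at 0 and Dcn, Col3a1, Col5a2, Lrp2, Snai1, Krt8, Krt19, Timp3 and Pou5f1. Plod3, Col6a3 and Nanog were not analysed here. The script was tested on simulated data with known changes. Alternatives were pseudocounts of 0.1 and 1, a filter at 1 RPKM, centring on the median ratio, equal upper quartiles, summed entries and a 2-fold threshold. Python 3.11.15, numpy 2.4.6, pandas 2.3.3 and matplotlib 3.10.9 were used.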

Additional observations from a re-analysis of the deposited data

Results flagged for a closer look

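For several of the 9 genes the AP3 library stood above WT at D0 and below it at D3. The log2 change from D0 to D3 in AP3 minus that in WT was -2.02 for Col4a1, -2.01 for Lama1, -1.91 for Col4a2, -1.52 for Sparc, -1.43 for Lamb1 and -0.79 for Lamc1. Nid1 (-0.94) and Hspg2 (-0.52) changed sides too, without passing 1.5-fold at either day. At D3 none of these 8 genes passed 1.5-fold below WT.

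Against the library labelled H2AZ KD the AP3 library changed sides in the same way. The corresponding differences were -2.45 for Lama1, -2.25 for Col4a1, -2.11 for Col4a2, -1.94 for Sparc, -1.83 for Lamb1, -1.27 for Nid1 and -1.24 for Lamc1. For Hspg2 it was -0.85, past 1.5-fold at neither day. Both sets of values share the AP3 libraries. With 1 library per condition the difference was not tested.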

How the results depend on the processing

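The log2 changes of the 9 genes in the 9 comparisons were recomputed under 7 alternatives. Of 567 such values, 545 stayed on the same side of the threshold, 18 dropped below it (17 of them under the 2-fold threshold), 4 came to pass it and 0 changed direction. The pseudocounts of 0.1 and 1, the filter at 1 RPKM and the summing of entries with a shared symbol moved none of the 81 values across the threshold. In KD against WT at D3, 3 genes were called, 5 with centring on the median ratio, 5 with equal upper quartiles and 0 with the 2-fold threshold. In AP3 from D0 to D3, 3 genes were called and 1 with the 2-fold threshold. In AP3 against KD at D3, 6 genes were called and 0 with the 2-fold threshold. Estimated depth in AP3 D0 was 31100000 reads, or 14300000 from transcripts over 3000 bases, and in WT D3 21000000 or 15600000, so that depth is known only roughly. No paired analysis was possible because the conditions compared hold 1 library each and so share fewer than 2 replicate numbers, and for the same reason no replicate could be left out. Pairing D0 with D3 by line, with the 3 lines as replicates of 1 day effect, can be computed but answers none of the 9 comparisons, and it was not run. Which differences exceed the spread between cultures is not known from these data.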
